A study of Homo sapiens with 26 samples.

Results

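The mitochondrial chromosome encodes 13 mRNAs, 2 rRNAs and 22 tRNAs in the GENCODE 29 annotation, 37 genes in all. Rows of the expression table were taken as members where their gene symbol begins with MT-. This gave 28 of the 25745 genes in the table, namely all 13 mRNAs, both rRNAs and 13 of the 22 tRNAs. The tRNA genes MT-TF, MT-TV, MT-TL1, MT-TM, MT-TW, MT-TQ, MT-TY, MT-TS1 and MT-TE were not analysed here. All 28 members passed the filter on low values, which asked for 3 or more libraries above a log2 value of 0. Members called heavy strand (12 mRNAs, 2 rRNAs and 9 tRNAs) are annotated on the plus strand and are copied from the heavy strand of the mitochondrial DNA. Members called light strand are annotated on the minus strand. They are the mRNA MT-ND6 and the tRNAs MT-TA, MT-TN, MT-TC and MT-TP.

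The series is an APEX-seq study of HEK293T, an immortalised human embryonic kidney cell line, with 26 libraries. In APEX-seq a peroxidase, APEX2, is fused to a targeting sequence. With hydrogen peroxide it oxidises biotin-phenol to radicals that mark RNA close by, and the marked RNA is captured on streptavidin and sequenced. Cells stably carried 1 of 4 APEX2 constructs. Lyn11 and Lck place the enzyme on the inside of the plasma membrane, and CD28 and PDGFR place it on the outside. Lyn11 had 4 labeled and 4 unlabeled control libraries, and each other construct had 3 of either kind. The sample labels list 30 min of biotin-phenol and 1 min of 1 mM hydrogen peroxide for labeled and control samples alike, and which step the controls lacked is not given in the sources used here. Whether rRNA was removed and whether the libraries kept strand were not given either. The series calls the replicates biological, and no label says whether a line is 1 clone.

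Human mitochondrial DNA is transcribed on both strands as long precursors. The tRNAs lie between the other genes, and their excision releases the mRNAs and rRNAs. The mRNAs encode core subunits of respiratory complexes I, III, IV and V, and all are translated by ribosomes inside the mitochondrial matrix, which an inner and an outer membrane separate from the cytosol. Neither face of the plasma membrane, where the 4 constructs are placed, is in contact with the matrix.

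The strands differ in base composition, which the first 120 bases of 3 mRNAs show. They were chosen because MT-ND6 carries the clearest difference between labeled and control libraries, MT-ND5 is its neighbour on the opposite strand, and MT-CO1 is the most abundant member. Guanines are in capitals, and each sequence is read 5′ to 3′ from the GENCODE 29 transcript.
MT-ND6: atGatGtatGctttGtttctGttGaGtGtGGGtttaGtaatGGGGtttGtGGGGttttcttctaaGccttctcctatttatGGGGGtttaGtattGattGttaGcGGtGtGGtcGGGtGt
MT-ND5: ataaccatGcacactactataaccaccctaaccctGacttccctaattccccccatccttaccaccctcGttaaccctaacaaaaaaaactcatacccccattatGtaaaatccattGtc
MT-CO1: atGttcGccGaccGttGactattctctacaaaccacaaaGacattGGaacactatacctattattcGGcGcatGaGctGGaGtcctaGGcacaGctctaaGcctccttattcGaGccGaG
These stretches hold 40 guanines in MT-ND6, 5 in MT-ND5 and 24 in MT-CO1. Over the whole gene MT-ND6 is 35.6% guanine and 7.0% cytosine. The 12 heavy-strand mRNAs are 6.3% to 16.2% guanine and 29.5% to 36.0% cytosine. The 4 light-strand tRNAs are 23.5% to 30.4% guanine, and the 9 heavy-strand tRNAs 10.3% to 16.7%. MT-ND6 lies at chrM:14149-14673 on the minus strand (GENCODE 29 on hg38), directly after MT-ND5 at chrM:12337-14148 on the plus strand. MT-CO1 lies at chrM:5904-7445 on the plus strand. Each is annotated as a single exon.

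The 3 tRNAs just upstream of MT-ND5 are shown because 1 of them, MT-TS2, passed the test and its neighbours did not. The anticodon is in capitals.
MT-TH: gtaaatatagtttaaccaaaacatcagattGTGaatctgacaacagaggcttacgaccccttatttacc
MT-TS2: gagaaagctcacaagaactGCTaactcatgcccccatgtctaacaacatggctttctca
MT-TL2: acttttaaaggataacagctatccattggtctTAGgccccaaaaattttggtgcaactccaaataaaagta
MT-TS2, at chrM:12207-12265 on the plus strand, is the shortest of the 13 tRNA genes in the table at 59 bases and carries serine for AGY codons. MT-TH at chrM:12138-12206 carries histidine, and MT-TL2 at chrM:12266-12336 carries leucine for CUN codons. All 3 genes abut, so a read from an unprocessed precursor can cover more than 1 of them and MT-ND5.

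Levels are in log2 FPKM, a scale that takes account of both gene length and library size, so genes can be compared per length. Whole reads were recovered from these values for all 28 members in every library. The 14 inside libraries held 19.99 M to 35.57 M reads and the 12 outside libraries 11.6 M to 16.62 M, so depth and side cannot be told apart. Replicate 2 of the CD28 labeled group (3148 genes at 0 reads) and replicate 2 of the PDGFR controls (3024) differed from the other libraries, where 24 to 1540 genes were at 0. Results that rest on either are given with and without it. Of 6 HEK293T background markers 5 were in the table, each with reads in every library. These were PAX2 (84 to 346 reads), NEFM (359 to 1193), NEFL (679 to 3096), KRT8 (596 to 2676) and KRT18 (398 to 2083). LHX1 was not in the table. Of 5 blood markers 2 were in the table, CD3E with at most 40 and HBA1 with at most 38 reads. Of 5 fibroblast markers 3 were, COL1A1 at 564 to 2367, COL3A1 at 36 to 240 and LUM at 0 to 58 reads.

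Mitochondrially encoded RNA made up between 0.545% of a library's reads, in CD28 labeled replicate 2, and 2.733%, in Lck labeled replicate 3. Nearly all of it was mRNA. The mRNA share averaged 2.31% ± 0.396 (SD, n = 3) in labeled Lck libraries and 1.74% ± 0.299 (SD, n = 3) in their controls. In Lyn11 libraries it was 1.18% ± 0.4 (SD, n = 4) labeled and 1.24% ± 0.269 (SD, n = 4) control. For CD28 it was 1.21% ± 0.701 (SD, n = 3) labeled and 1.16% ± 0.305 (SD, n = 3) control, and for PDGFR 1.35% ± 0.0321 (SD, n = 3) and 1.11% ± 0.099 (SD, n = 3). These are shares of reads in bulk APEX-seq libraries. Labeling, capture, the number of cells contributing and RNA per cell cannot be told apart in them. The 13 tRNA genes together gave 243 to 3335 reads a library. The rRNAs, usually the most abundant mitochondrial RNAs, together gave 0 to 476.

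Among the mRNAs, MT-CO1, a catalytic subunit of cytochrome c oxidase (complex IV), was the highest, with a mean over the 26 libraries of 12.15 log2 FPKM and 51274 to 295202 reads. The complex I subunit MT-ND5 followed at 9.92 and the complex IV subunit MT-CO3 at 9.66. The light-strand mRNA MT-ND6, another complex I subunit, was next at 9.44. MT-ND5, MT-CO3 and MT-ND6 lay closer together than the residual SD of MT-ND6 within groups, 0.55, while MT-CO1 lay more than 2 log2 units above them. MT-ND4, MT-CYB (the complex III subunit cytochrome b), MT-ATP6, MT-CO2, MT-ND4L, MT-ND1 and MT-ND2 ran from 9.28 down to 7.68. MT-ND3 and MT-ATP8, the shortest mRNA at 207 bases, were lowest at 6.87 and 6.75. MT-ATP8 overlaps MT-ATP6, and MT-ND4L overlaps MT-ND4, so reads across each overlap belong to both genes of the pair.

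The tRNA MT-TP (proline) averaged 7.22 log2 FPKM, MT-TR (arginine) 6.78 and MT-TC (cysteine) 6.19, the highest 3 of their class. The lowest 3 were MT-TK (lysine) at 3.62, MT-TT (threonine) at 3.36 and MT-TD (aspartate) at 2.55, the last with 0 to 34 reads a library. Light-strand tRNAs ranked 1, 3, 7 and 9 of the 13. The rRNAs MT-RNR1 (small subunit) and MT-RNR2 (large subunit) averaged 0.37 and 0.03 log2 FPKM, below every tRNA and mRNA. MT-RNR1 was above a log2 value of 0 in 15 of 26 libraries and MT-RNR2 in 13, so both passed the filter on low values through a part of the libraries, most of them from the outside constructs.

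**Figure D1:**
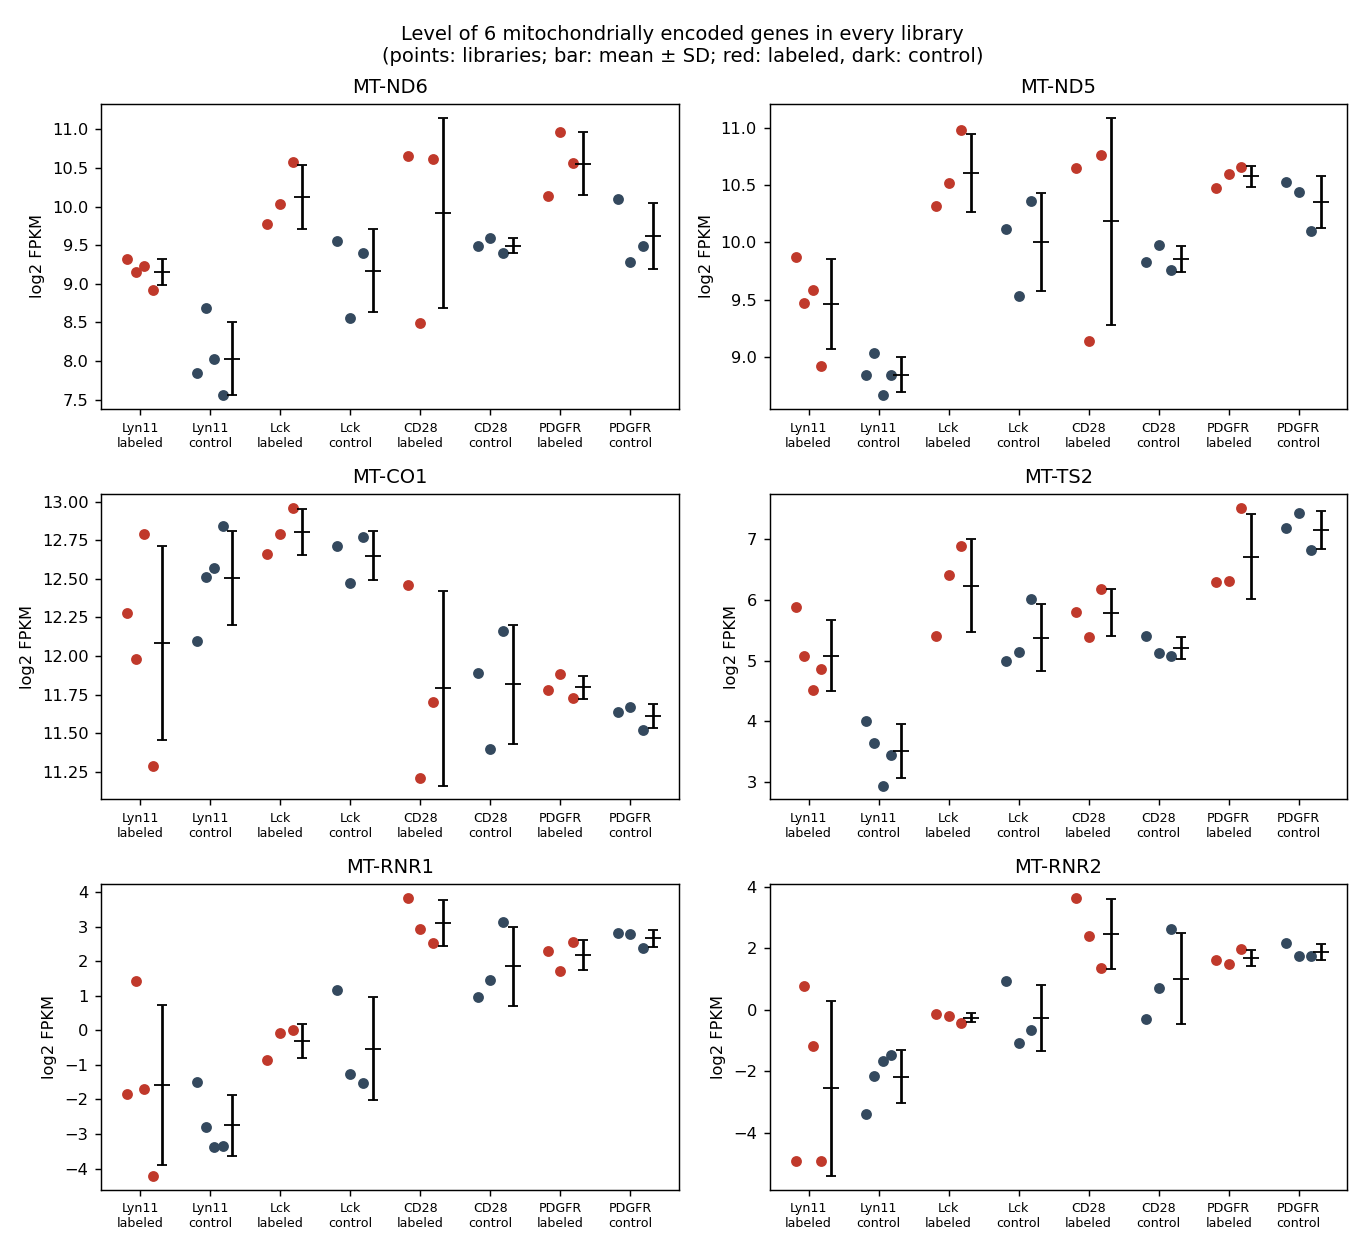
Level of MT-ND6, MT-ND5, MT-CO1, MT-TS2, MT-RNR1 and MT-RNR2 (log2 FPKM, y axis) in each library of the 8 groups (x axis); points are libraries, red labeled and dark control, and the bar beside them is the group mean ± SD. MT-ND6 points of labeled libraries lie above those of the controls for Lyn11, Lck and PDGFR, and the CD28 labeled library at 8.49 is replicate 2.

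MT-ND6 and MT-TS2 were the 2 of 28 members that rose in labeled over control libraries in the average of the 4 constructs, and 0 fell. Over all 22284 genes tested 4.29% were called higher and 3.08% lower, so 2 of 28 is close to what the whole table gave. MT-ND6 rose by 0.86 ± 0.21 on the log2 scale (limma, Benjamini-Hochberg adjusted p = 0.0128). MT-TS2 rose by 0.65 ± 0.19 (limma, adjusted p = 0.0458). At an unadjusted p under 0.05 limma had 7 members higher and 0 lower, beside 9.72% and 9.46% of all genes. Limma voom on the recovered reads called 4 members higher (MT-ND1, MT-ND2, MT-ND5 and MT-ND6) and did not call MT-TS2. Of its genes 4.74% were called higher and 3.0% lower. Here and below ± after a difference is the standard error of the fit.

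For MT-ND6 the Lyn11 labeled libraries stood at 9.32, 9.15, 9.23 and 8.92 log2 FPKM and the controls at 7.85, 8.68, 8.03 and 7.56. The Lck labeled libraries stood at 9.77, 10.03 and 10.58 and the controls at 9.55, 8.56 and 9.40. Labeled and control libraries did not overlap in either inside construct. The PDGFR labeled libraries stood at 10.14, 10.96 and 10.56, and the controls at 10.10, 9.28 and 9.49, which again did not overlap, though the nearest pair differed by little. The CD28 labeled libraries stood at 10.65, 8.49 and 10.61 and the controls at 9.49, 9.59 and 9.40. There replicate 2 lay below all controls and the other 2 labeled libraries above them.

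Taken singly, the MT-ND6 difference in Lyn11 was 1.13 ± 0.37, in Lck 0.96 ± 0.43, in CD28 0.43 ± 0.43 and in PDGFR 0.93 ± 0.43, and none passed the test (limma, adjusted p = 0.35, 0.714, 0.694 and 0.336). Without CD28 labeled replicate 2 the CD28 difference was 1.14 ± 0.34 (limma, adjusted p = 0.254), and the average rose by 1.04 (limma, adjusted p = 0.000137). The average call for MT-ND6 held in 36 of 36 alternatives, with differences of 0.53 to 1.04 and limma adjusted p of 0.000137 to 0.0383. In an exact permutation test of the mean difference within constructs, over 560000 arrangements of the labels and two-sided, p was 0.000871 for MT-ND6 and 0.0143 for MT-TS2 (adjusted over these 2 genes, 0.00174 and 0.0143). That test was chosen after these genes had been called, so it is no independent evidence. Without strand information, reads of MT-ND6 and of heavy-strand precursor RNA antisense to it cannot be told apart.

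For the serine tRNA MT-TS2 the Lyn11 labeled libraries stood at 5.88, 5.08, 4.51 and 4.86 log2 FPKM and the controls at 4.0, 3.65, 2.94 and 3.45. The reads behind them were few, 32 to 80 in labeled and 10 to 28 in control libraries. The groups did not overlap, and the difference of 1.58 ± 0.35 was the only one of a member called in a single construct (limma, adjusted p = 0.0358). The Lck labeled libraries stood at 5.40, 6.42 and 6.89 and the controls at 4.99, 5.14 and 6.01, which overlapped. The CD28 labeled libraries stood at 5.81, 5.39 and 6.18 and the controls at 5.41, 5.13 and 5.08, also overlapping. The PDGFR labeled libraries stood at 6.30, 6.31 and 7.52 and the controls at 7.19, 7.44 and 6.82, so most controls were higher there.

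The MT-TS2 differences were 0.86 ± 0.40 for Lck, 0.59 ± 0.40 for CD28 and -0.44 ± 0.40 for PDGFR (limma, adjusted p = 0.741, 0.54 and 0.702). The Lyn11 call for MT-TS2 held in 27 of 37 alternatives (limma adjusted p of 0.0211 to 0.26). It was lost without Lyn11 labeled replicate 1, 2 or 4, Lyn11 control replicate 2, 3 or 4, or Lck labeled replicate 2, with differences of 1.31 to 1.77 over all alternatives. Voom, weights by construct and a fit on the Lyn11 libraries alone lost the Lyn11 call as well. The average call held in 14 of 36 alternatives, with differences of 0.55 to 0.75 and adjusted p of 0.0158 to 0.141, and leaving out any 1 of 18 libraries ended it. Quantile normalization, the stricter filter, voom and weights by construct ended the average call too. It held without Lyn11 labeled replicate 3, Lyn11 control replicate 1, Lck labeled replicate 1, Lck control replicate 3, CD28 labeled replicate 2, PDGFR labeled replicate 1 or 2, or PDGFR control replicate 2.

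Mitochondrial mRNAs other than MT-ND6 were not called in the average. All 7 complex I mRNAs had an average difference above 0, with a median of 0.44, and MT-ND6 was the 1 called. The largest after it were MT-ND1 at 0.78 ± 0.28 and MT-ND2 at 0.75 ± 0.24 (limma, adjusted p = 0.106 and 0.0652), then MT-ND5 at 0.44 ± 0.16 (adjusted p = 0.111). The 3 complex IV mRNAs had a median of 0.05, with MT-CO1 at -0.03 ± 0.20 and MT-CO3 at 0.05 ± 0.31 (adjusted p = 0.97 and 0.96). The complex V mRNAs MT-ATP6 and MT-ATP8 were at 0.49 ± 0.27 and 0.37 ± 0.42, and MT-CYB of complex III at 0.29 ± 0.30. The difference between complexes was not tested.

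Without CD28 labeled replicate 2, 6 members were called higher and 0 lower in the average, where 5.04% and 2.95% of all genes were. These were MT-ND6 and MT-TS2 with MT-ND1 at 1.02 ± 0.21, MT-ND2 at 0.92 ± 0.20, MT-ND5 and the arginine tRNA MT-TR at 0.66 ± 0.17 (limma, adjusted p = 0.00392 for MT-ND1, 0.00557 for MT-ND2, 0.00476 for MT-ND5 and 0.0177 for MT-TR). The MT-ND5 difference was then 0.57. In that library MT-ND1 stood at 6.06 log2 FPKM, the lowest of all 26.

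The level of MT-ND1 averaged 8.27 ± 0.68 labeled and 7.29 ± 0.35 control for Lyn11, 9.20 ± 0.36 and 8.03 ± 0.47 for Lck, 7.92 ± 1.78 and 8.03 ± 0.77 for CD28, and 8.28 ± 0.25 and 7.19 ± 0.41 for PDGFR (log2 FPKM, mean ± SD, n = 4 for Lyn11 and 3 otherwise, labeled first, as in the values that follow). MT-ND2 averaged 7.85 ± 0.70 and 6.92 ± 0.29 for Lyn11, 8.72 ± 0.48 and 7.63 ± 0.56 for Lck, 7.81 ± 1.37 and 7.65 ± 0.55 for CD28, and 7.95 ± 0.19 and 7.14 ± 0.45 for PDGFR. MT-ND5 averaged 9.46 ± 0.40 and 8.84 ± 0.15 for Lyn11, 10.61 ± 0.34 and 10.01 ± 0.43 for Lck, 10.19 ± 0.91 and 9.86 ± 0.11 for CD28, and 10.58 ± 0.10 and 10.36 ± 0.23 for PDGFR. These 3 complex I mRNAs were higher in labeled libraries by the mean in Lyn11, Lck and PDGFR, and labeled and control MT-ND1 and MT-ND2 libraries did not overlap in Lck and PDGFR.

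The other complex I mRNAs were not called in the average either. MT-ND3 averaged 6.36 ± 1.48 and 6.09 ± 0.54 for Lyn11, 8.43 ± 0.99 and 7.60 ± 0.95 for Lck, 6.85 ± 1.06 and 6.78 ± 0.84 for CD28, and 6.73 ± 0.30 and 6.57 ± 0.16 for PDGFR. MT-ND4L averaged 8.13 ± 1.01 and 7.81 ± 0.36 for Lyn11, 9.65 ± 0.74 and 9.06 ± 0.69 for Lck, 8.18 ± 1.12 and 8.28 ± 0.46 for CD28, and 8.11 ± 0.14 and 7.97 ± 0.29 for PDGFR. MT-ND4 averaged 9.03 ± 0.77 and 8.67 ± 0.17 for Lyn11, 10.28 ± 0.40 and 9.71 ± 0.41 for Lck, 9.24 ± 1.36 and 9.24 ± 0.56 for CD28, and 9.36 ± 0.06 and 8.97 ± 0.26 for PDGFR. Their largest group means were in Lck labeled libraries, and their average differences were 0.33, 0.24 and 0.33.

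The complex IV mRNA MT-CO1 stood at 12.28, 11.98, 12.79 and 11.29 log2 FPKM in Lyn11 labeled libraries and at 12.10, 12.51, 12.57 and 12.84 in the controls. It stood at 12.66, 12.79 and 12.96 in Lck labeled libraries and at 12.71, 12.47 and 12.77 in the controls. Both pairs of groups overlapped, and the Lyn11 difference of -0.42 ran below 0. For CD28, MT-CO1 stood at 12.46, 11.21 and 11.70 labeled and 11.89, 11.40 and 12.16 control. For PDGFR it stood at 11.78, 11.88 and 11.73 labeled and 11.64, 11.67 and 11.52 control. The PDGFR groups did not overlap, and the fitted difference was 0.19.

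MT-CO2 averaged 8.55 ± 0.99 and 8.40 ± 0.23 for Lyn11, 9.87 ± 0.35 and 9.18 ± 0.42 for Lck, 8.54 ± 1.72 and 8.63 ± 1.09 for CD28, and 8.85 ± 0.20 and 8.05 ± 0.48 for PDGFR. MT-CO3 averaged 9.30 ± 1.13 and 9.74 ± 0.62 for Lyn11, 10.74 ± 0.35 and 10.34 ± 0.41 for Lck, 9.24 ± 1.47 and 9.40 ± 1.05 for CD28, and 9.50 ± 0.18 and 9.11 ± 0.28 for PDGFR. Both cytochrome c oxidase mRNAs were above 0 in Lck and PDGFR and below 0 in CD28 by the fitted difference, and neither was called. With labeled replicate 2 left out, the CD28 differences were 0.74 for MT-CO2 and 0.54 for MT-CO3. MT-CYB averaged 9.03 ± 1.00 and 8.94 ± 0.28 for Lyn11, 10.12 ± 0.31 and 9.54 ± 0.42 for Lck, 8.77 ± 1.62 and 8.92 ± 1.00 for CD28, and 9.11 ± 0.23 and 8.46 ± 0.36 for PDGFR. For the ATP synthase subunits, MT-ATP6 averaged 8.79 ± 0.68 and 8.27 ± 0.41 for Lyn11, 9.77 ± 0.26 and 9.03 ± 0.39 for Lck, 8.63 ± 1.63 and 8.65 ± 0.88 for CD28, and 9.22 ± 0.16 and 8.50 ± 0.47 for PDGFR. MT-ATP8 averaged 6.88 ± 0.91 and 6.36 ± 0.20 for Lyn11, 8.08 ± 0.57 and 7.26 ± 0.56 for Lck, 5.71 ± 2.88 and 6.51 ± 0.80 for CD28, and 7.09 ± 0.05 and 6.15 ± 0.80 for PDGFR. The CD28 labeled SD of MT-ATP8 was the widest of all mRNA groups, with replicate 2 at 2.53 log2 FPKM and 16 reads.

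**Figure D2:**
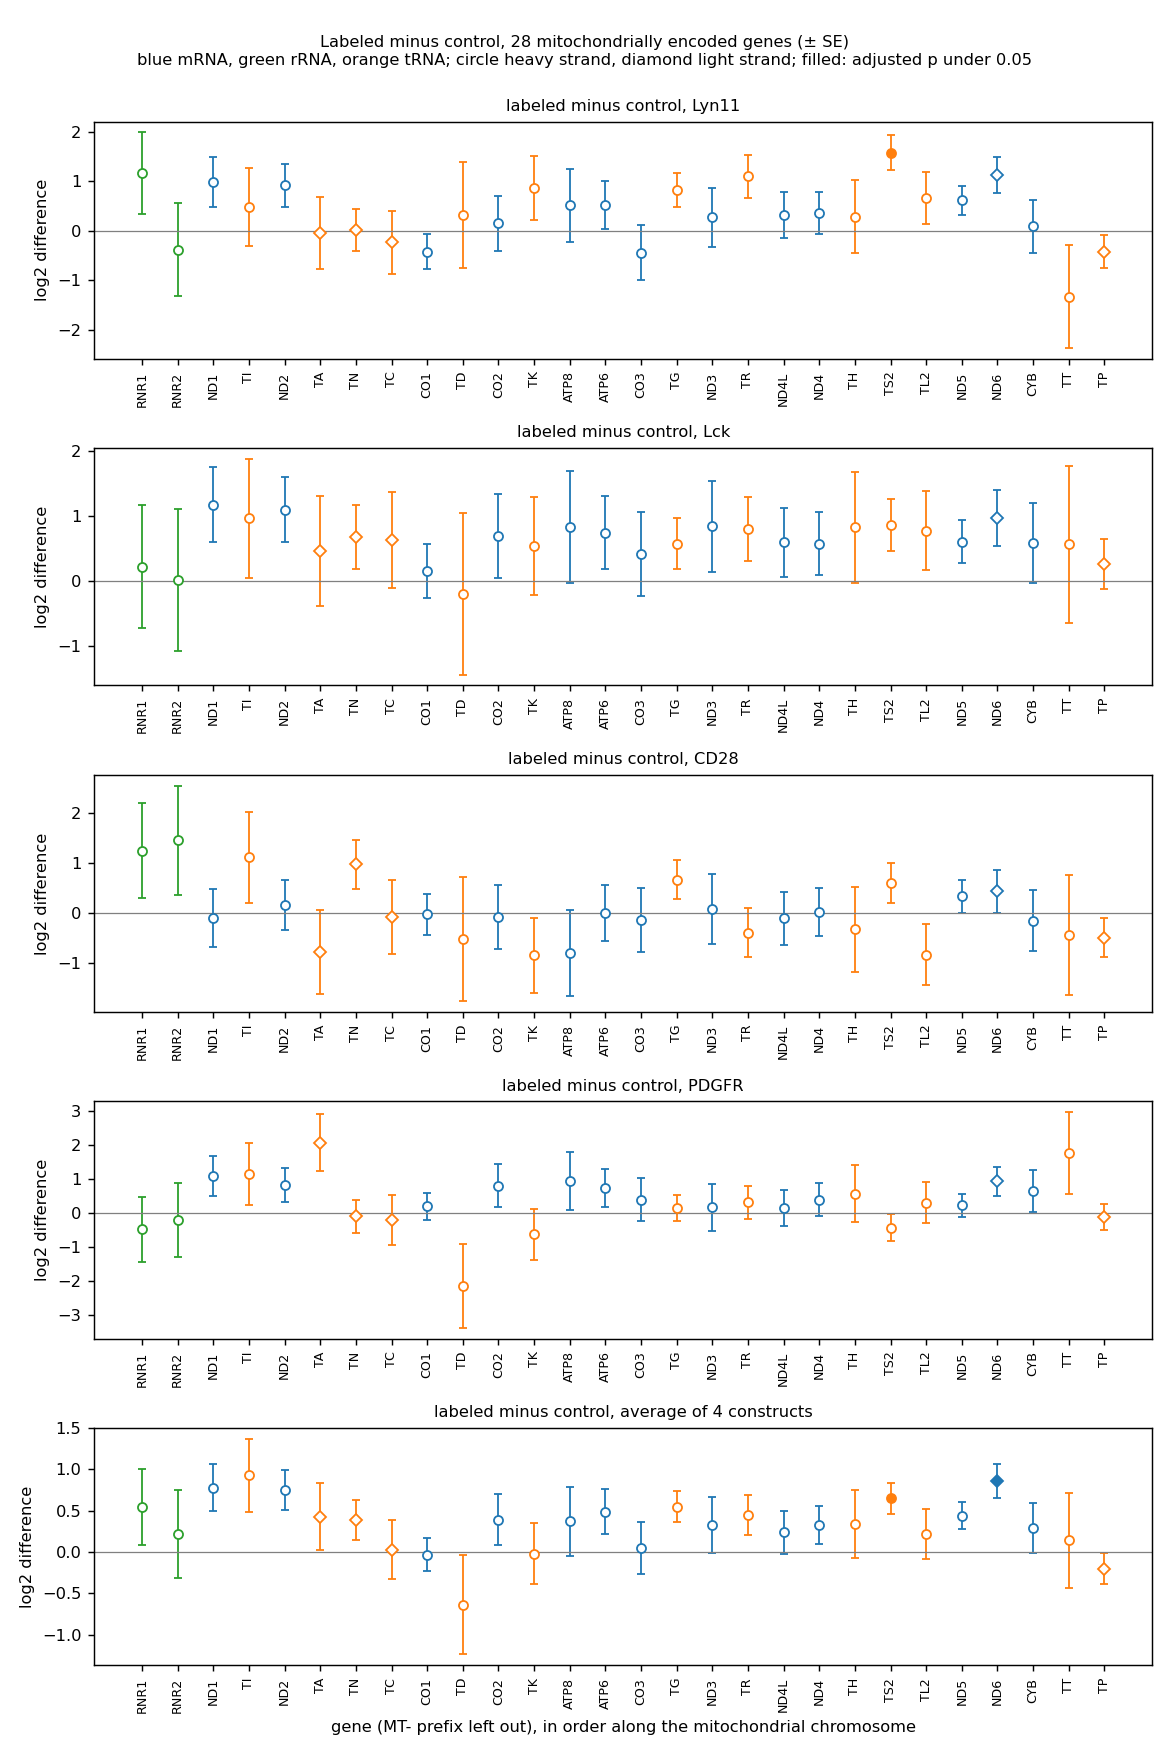
Labeled minus control difference (log2, y axis, ± SE) of the 28 members in order along the mitochondrial chromosome (x axis), with a panel for each construct and for the average; blue is mRNA, green rRNA, orange tRNA, circles heavy strand, diamonds light strand, filled points have an adjusted p under 0.05. MT-TS2 is filled for Lyn11, and MT-TS2 and MT-ND6 are filled for the average.

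By class, the median average difference was 0.37 for mRNAs, 0.34 for tRNAs and 0.38 for the 2 rRNAs, beside -0.01 for all genes tested. Of the 28 members 24 lay above 0. The heavy-strand median was 0.34 and the light-strand median 0.39, and MT-ND6 at 0.86 stood above both. The 4 light-strand tRNAs had a median of 0.21, from -0.20 to 0.43, and the 9 heavy-strand tRNAs 0.34, from -0.64 to 0.93. The members share libraries and precursor transcripts, so these medians are descriptions with no test.

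The constructs differed in these medians. For Lck all 13 mRNAs and 12 of 13 tRNAs had a difference above 0, with medians of 0.69 and 0.63. For PDGFR all 13 mRNAs were above 0 with a median of 0.65, while 7 of 13 tRNAs were and their median was 0.15. For Lyn11 the counts were 11 mRNAs and 9 tRNAs, with medians of 0.36 and 0.32. For CD28 they were 5 and 4, with medians of -0.03 and -0.40. Without CD28 labeled replicate 2 the CD28 medians became 0.74 for mRNAs, with 13 of 13 above 0, and 0.44 for tRNAs, with 11 of 13 above 0, and limma called 0 members there, where 0.108% of all genes were called higher and 0.0942% lower.

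Calls within single constructs were few. For Lyn11 limma called MT-TS2 alone higher, where 0.53% of all genes were called higher and 0.0494% lower, and 6 members were higher at an unadjusted p under 0.05, beside 4.01% of all genes. For Lck, CD28 and PDGFR limma called 0 members, with 3, 0 and 2 higher at an unadjusted p under 0.05 beside 4.48%, 5.5% and 8.22% of all genes, and voom called 0 in each of the 4 constructs. Of all genes, 0.758% were called higher and 0.0359% lower in Lck, 0.175% and 0.301% in CD28, and 1.37% and 0.758% in PDGFR. On the libraries compared alone these shares were 0% and 0% in CD28 and 0.0628% and 0.00449% in PDGFR. In simulated data the main fit gave 215 false calls for CD28 and 282 for PDGFR, so its shares there are uncertain. With libraries weighted by construct, which gave Lck a weight of 2.65 against 0.602 to 0.993 for the others, limma called MT-ND1, MT-ND2 and MT-ND6 higher for Lck, where 5.39% of all genes were.

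Groups that did not overlap were counted as well, and in each construct 0 members had all labeled libraries below all controls, as 1.91% of all genes did in Lyn11, 13.2% in Lck, 6.59% in CD28 and 6.39% in PDGFR. Labeled libraries lay above all controls for 4 of 28 members in Lyn11 (MT-TG, MT-TR, MT-TS2 and MT-ND6), where 3.4% of all genes did so. They did for 6 in Lck (MT-ND1, MT-TI, MT-ND2, MT-CO2, MT-ATP6 and MT-ND6), against 12.9% of all genes, and for 1 in CD28 (MT-TN), against 7.44%. In PDGFR it was 8, all of them mRNAs (MT-ND1, MT-ND2, MT-CO1, MT-CO2, MT-ATP6, MT-ND4, MT-ND6 and MT-CYB), against 7.53% of all genes. Without CD28 labeled replicate 2 there were 5 members in CD28 (MT-TI, MT-TN, MT-TS2, MT-ND5 and MT-ND6), against 13.4% of all genes, with 0 below and 8.84% of all genes. Without PDGFR control replicate 2 there were 9 in PDGFR, with MT-ND4L added, against 11.6%, with 0 below and 12.6% of all genes. With all libraries MT-ND6 was the 1 member on the lists of 3 constructs, and without CD28 labeled replicate 2 it was on those of all 4. Neighbouring members are not independent of each other.

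Among tRNAs other than MT-TS2 none was called in the average. The glycine tRNA MT-TG was nearest, at 0.55 ± 0.19 (limma, adjusted p = 0.0836), with 11 to 320 reads a library. The isoleucine tRNA MT-TI had the largest difference, 0.93 ± 0.44, but its reads ran from 0 to 116 and its adjusted p was 0.254. MT-TH and MT-TL2, on either side of MT-TS2, differed by 0.34 ± 0.41 and 0.22 ± 0.30 (limma, adjusted p = 0.741 and 0.772).

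Of the 3 most abundant tRNAs, MT-TP averaged 6.51 ± 0.44 and 6.93 ± 0.34 for Lyn11, 7.64 ± 0.44 and 7.38 ± 0.46 for Lck, 6.88 ± 0.92 and 7.38 ± 0.45 for CD28, and 7.61 ± 0.42 and 7.73 ± 0.43 for PDGFR. MT-TR averaged 6.66 ± 0.45 and 5.57 ± 0.25 for Lyn11, 7.75 ± 0.76 and 6.95 ± 0.41 for Lck, 6.02 ± 1.53 and 6.42 ± 0.36 for CD28, and 7.81 ± 0.31 and 7.5 ± 0.14 for PDGFR. MT-TC averaged 6.14 ± 1.31 and 6.37 ± 0.92 for Lyn11, 7.59 ± 0.55 and 6.96 ± 0.51 for Lck, 4.99 ± 1.87 and 5.08 ± 0.64 for CD28, and 6.07 ± 0.34 and 6.27 ± 0.21 for PDGFR. The light-strand tRNAs MT-TP and MT-TC were lower by the mean in labeled libraries of Lyn11, CD28 and PDGFR, by no more than 0.50, and neither was called. In CD28 without labeled replicate 2 the differences were 0.03 for MT-TP and 0.10 for MT-TC.

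None of the 3 least abundant tRNAs was called between labeled and control libraries. MT-TK averaged 3.08 ± 0.55 and 2.23 ± 0.97 for Lyn11, 4.49 ± 0.75 and 3.96 ± 0.22 for Lck, 3.09 ± 2.16 and 3.95 ± 0.14 for CD28, and 4.10 ± 1.19 and 4.73 ± 0.50 for PDGFR. MT-TT averaged 2.68 ± 2.19 and 4.0 ± 0.61 for Lyn11, 5.05 ± 0.81 and 4.49 ± 0.50 for Lck, 2.47 ± 2.54 and 2.91 ± 1.17 for CD28, and 3.55 ± 1.77 and 1.79 ± 1.70 for PDGFR. MT-TD averaged 2.31 ± 1.62 and 1.99 ± 0.75 for Lyn11, 3.94 ± 0.33 and 4.13 ± 0.26 for Lck, 1.37 ± 2.1 and 1.90 ± 2.08 for CD28, and 1.44 ± 3.18 and 3.58 ± 0.54 for PDGFR. MT-TD had 0 reads in 4 libraries, 3 of them outside labeled ones, where a count of 0 allows up to 0.196 to 0.231 RPM (reads scaled to a library of 1 M), and in CD28 control replicate 2 up to 0.259 RPM. These limits are 3 reads of the library total and cover counting error only.

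The difference between inside and outside constructs in their labeled minus control value was tested directly, and limma called 0 of 28 members (1 was higher at an unadjusted p under 0.05, beside 3.5% of all genes, and voom called 0), where 0.00449% of all genes were called higher and 0% lower. MT-TS2 was the nearest at 1.14 ± 0.39 (limma, adjusted p = 0.649), and MT-ND6 differed by 0.36.

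**Figure D3:**
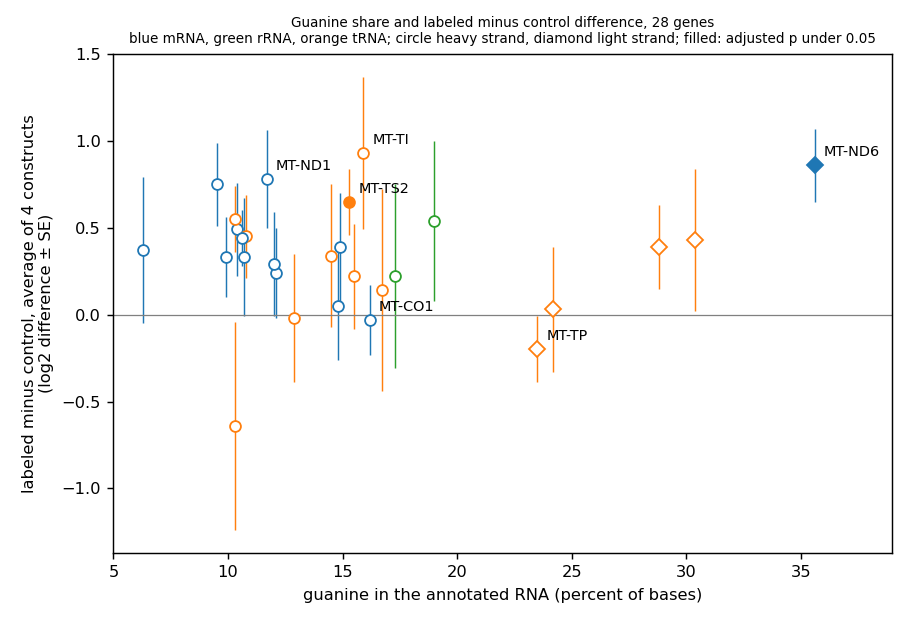
Labeled minus control difference in the average of 4 constructs (log2, y axis, ± SE) against the guanine share of the annotated RNA (percent of bases, x axis) for the 28 members; colours and symbols mark class and strand, and filled points have an adjusted p under 0.05. MT-ND6 is farthest right at 35.6% and among the highest points, and the 4 light-strand tRNAs at 23.5% to 30.4% lie between -0.20 and 0.43. A relation to guanine share was not tested, and guanine share and strand cannot be told apart among these members.

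The balance of MT-ND6 against the other mRNAs was also taken within each library, which leaves out any scaling between libraries. MT-ND6 minus the median of the 12 heavy-strand mRNAs averaged 0.49 ± 0.66 in Lyn11 labeled and -0.35 ± 0.29 in control libraries (log2, SD, n = 4 each). It averaged 0.25 ± 0.02 and -0.01 ± 0.08 for Lck, 1.33 ± 0.85 and 0.78 ± 0.98 for CD28, and 1.58 ± 0.34 and 1.29 ± 0.13 for PDGFR (SD, n = 3 each). The labeled mean was higher in all 4 constructs, and labeled and control libraries did not overlap in Lck. MT-ND6 minus its neighbour MT-ND5 averaged -0.49 ± 0.08 labeled and -0.83 ± 0.23 control in Lck and -0.03 ± 0.36 and -0.73 ± 0.38 in PDGFR, without overlap in either, and -0.30 ± 0.23 and -0.82 ± 0.41 in Lyn11 and -0.27 ± 0.34 and -0.37 ± 0.03 in CD28, with overlap. In CD28 replicate 2 stood at -0.65, and the other labeled libraries, at 0.0 and -0.16, lay above the controls at -0.40 to -0.34. Both balances re-use the values behind the MT-ND6 call and had no test, so they are no independent evidence.

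MT-CO1 took 50.6% to 64.1% of mitochondrially encoded reads in Lyn11 labeled libraries and 65.6% to 73.7% in their controls. For Lck the ranges were 47.1% to 54.7% and 56.3% to 64.7%. Labeled libraries thus lay below all controls for both inside constructs. For CD28 the ranges of 41.9% to 61.6% and 49.1% to 52.9% overlapped, as did those of PDGFR, 42.7% to 44.4% and 43.6% to 50.6%. The 61.6% is CD28 labeled replicate 2, and without it the CD28 labeled libraries, at 41.9% and 42.0%, lay below their controls. Without PDGFR control replicate 2, at 50.6%, the PDGFR groups still overlapped. These shares had no test.

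**Figure D4:**
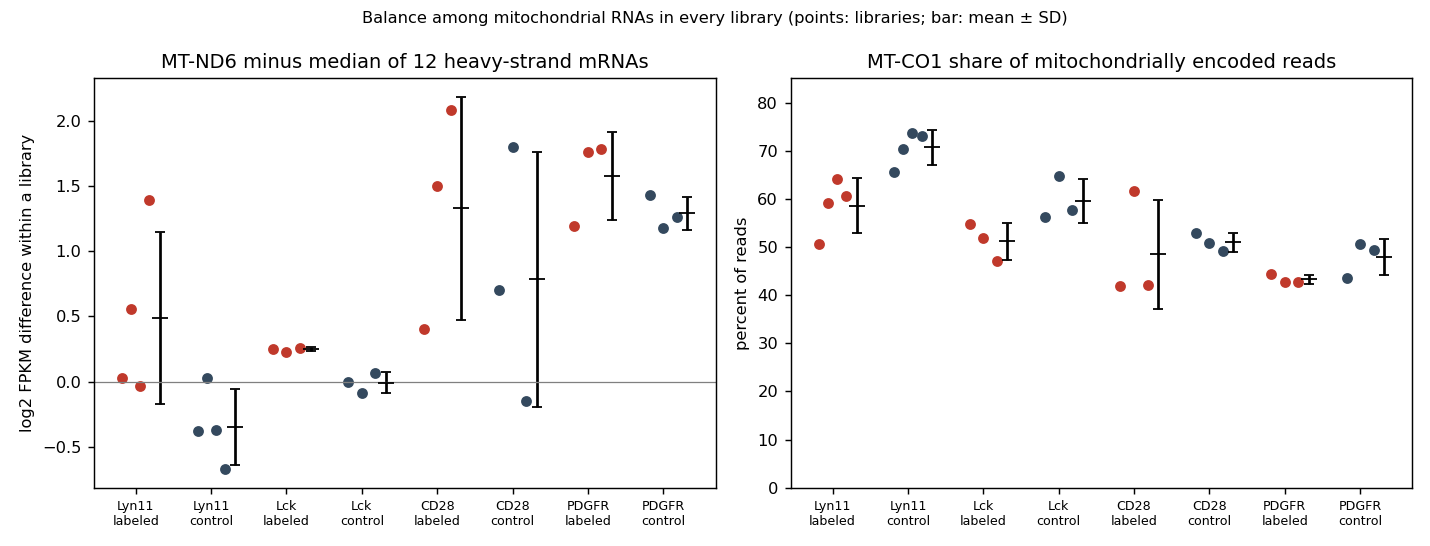
Left, MT-ND6 minus the median of the 12 heavy-strand mRNAs within each library (log2 FPKM difference, y axis); right, the MT-CO1 share of mitochondrially encoded reads (percent, y axis), both for the 8 groups (x axis); points are libraries, red labeled and dark control, bars mean ± SD. On the left the PDGFR labeled group has the highest mean, 1.58, and CD28 labeled replicate 3 is the highest library at 2.08. On the right the Lyn11 controls lie highest at 65.6% to 73.7%.

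Control libraries of the inside and outside constructs differed for 4 members. MT-RNR1, MT-RNR2, MT-TS2 and MT-ND6 were lower inside in the mean of the constructs, 4 of 28 where 3.84% of all genes were called lower. MT-RNR2 was above the filter value in 11 of 12 outside and 2 of 14 inside libraries, so it passed the filter on low values only through the outside libraries, and its value is a description. Without it the count is 3 of 27. Limma called 0 members higher inside, where 7.34% of all genes were, while 2 had an unadjusted p under 0.05 in that direction, beside 16.2% of all genes. MT-RNR1 fell by 3.91 ± 0.65 and MT-RNR2 fell by 2.67 ± 0.75 on the log2 scale (limma, adjusted p = 0.000869 and 0.0254). MT-TS2 fell by 1.73 ± 0.27 and MT-ND6 fell by 0.96 ± 0.30 (limma, adjusted p = 0.000569 and 0.0407). The MT-TS2 control means were 3.51 log2 FPKM in Lyn11, 5.38 in Lck, 5.21 in CD28 and 7.15 in PDGFR. Lck thus lay above CD28, and the lines did not separate by side. For MT-ND6 they were 8.03, 9.17, 9.49 and 9.62 in the same order, with Lyn11 apart and Lck near the outside lines. The p-values here measure the spread between libraries of a line, not between the lines of a side. Side, cell line and sequencing depth cannot be told apart here.

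MT-RNR1 stood at -1.50, -2.79, -3.38 and -3.34 log2 FPKM in Lyn11 controls and at 1.18, -1.27 and -1.52 in Lck controls. It stood at 0.97, 1.46 and 3.15 in CD28 controls and at 2.83, 2.80 and 2.39 in PDGFR controls. In reads this is 71 over the 7 inside and 441 over the 6 outside libraries, although the outside libraries were shallower, and Lck control replicate 1 alone reached the outside range. MT-RNR2 stood at -3.40, -2.14, -1.66 and -1.48 in Lyn11, 0.95, -1.07 and -0.65 in Lck, -0.28, 0.71 and 2.63 in CD28 and 2.18, 1.75 and 1.74 in PDGFR controls, with 131 reads inside and 436 outside. With reads this few, the fitted differences depend on the authors' prior count.

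In the labeled libraries too the rRNAs were higher for the outside constructs. MT-RNR1 stood at -1.84, 1.43, -1.70 and -4.21 log2 FPKM in Lyn11, -0.87, -0.09 and 0.02 in Lck, 3.83, 2.94 and 2.53 in CD28 and 2.31, 1.71 and 2.55 in PDGFR labeled libraries. MT-RNR2 stood at -4.92, 0.79, -1.16 and -4.92 in Lyn11, -0.14, -0.20 and -0.41 in Lck, 3.64, 2.42 and 1.36 in CD28 and 1.62, 1.48 and 1.98 in PDGFR. Every outside labeled library lay above every inside one for MT-RNR1, as for 0.476% of all genes, and 0 members lay the other way, against 0.924%. MT-RNR2 did so too, but it passed the filter only through outside libraries, so this is a description alone. These had no test. Both rRNAs were highest in CD28 labeled replicate 1. The lowest values are 0 reads, for MT-RNR1 in Lyn11 labeled replicate 4 and for MT-RNR2 in Lyn11 labeled replicates 1 and 4. A count of 0 allows up to 0.115 RPM in replicate 1 and 0.134 RPM in replicate 4. Neither was called between labeled and control libraries in any construct or in the average, at 0.54 ± 0.46 for MT-RNR1 and 0.22 ± 0.53 for MT-RNR2 (limma, adjusted p = 0.602 and 0.887).

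For MT-TS2 the controls ran from 2.94 to 6.01 inside and 5.08 to 7.44 outside, and for MT-ND6 from 7.56 to 9.55 and 9.28 to 10.10. For MT-ND5 they ran from 8.66 to 10.36 and 9.76 to 10.53. Each overlapped, as did the control groups of all 28 members, where 3.11% of all genes lay wholly higher and 1.25% wholly lower inside. MT-ND5 at -0.68 ± 0.23 and MT-CO1, higher inside at 0.86 ± 0.28, were just short of the threshold (limma, adjusted p = 0.0568 and 0.0534). The 12 heavy-strand mRNAs had a median of 0.24 and the 13 tRNAs of -0.05, beside 0.05 for all genes tested.

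The calls for MT-RNR1 and MT-TS2 held in 36 of 36 alternatives, with MT-RNR1 at -4.34 to -2.02. That for MT-RNR2 held in 33, at -2.99 to -1.34, and remains a description because of the filter. It was lost without Lck control replicate 2 or 3 or CD28 control replicate 3 (-2.47, -2.57 and -2.27, limma adjusted p = 0.0639, 0.0599 and 0.0617). The smallest values of both rRNAs, -2.02 and -1.34, came with log2(FPKM + 1), which compresses values near 0. That for MT-ND6 held in 23 of 36 and was lost when any of 12 libraries was left out, namely Lck labeled replicate 2 and every control library except Lyn11 and PDGFR control replicates 2, with differences of -1.19 to -0.81 and adjusted p up to 0.111. Leaving out CD28 labeled replicate 3 added the lysine tRNA MT-TK and MT-ND5 to those called lower. Without CD28 labeled replicate 2, which likewise enters through the shared spread alone, 7 members were called, with MT-CO1 higher and MT-TR and MT-ND5 lower inside added, where 8.55% and 5.1% of all genes were called higher and lower.

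**Figure D5:**
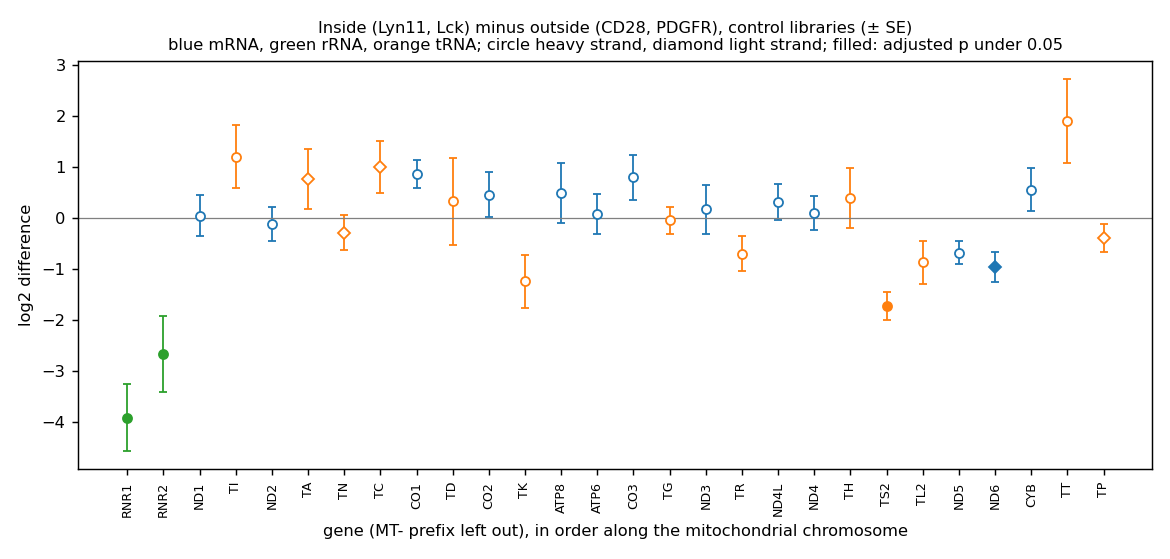
Inside (Lyn11, Lck) minus outside (CD28, PDGFR) difference over control libraries (log2, y axis, ± SE) for the 28 members in order along the mitochondrial chromosome (x axis); blue is mRNA, green rRNA, orange tRNA, circles heavy strand, diamonds light strand, filled points have an adjusted p under 0.05. The rRNAs at -3.91 and -2.67, MT-TS2 at -1.73 and MT-ND6 at -0.96 are filled.

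Mitochondrial DNA has near-identical copies in the nuclear genome, and 3 on chromosome 1 were aligned to their mitochondrial genes. Other copies were not aligned. MTND2P28 (chr1:629640-630683) is 98.4% identical to MT-ND2, MTCO1P12 (chr1:631074-632616) is 98.7% identical to MT-CO1, and MTATP6P1 (chr1:633696-634376) is 98.5% identical to MT-ATP6. Their reads came to 1.47% to 6.31%, 0.111% to 1.02% and 5.4% to 27.6% of those of their mitochondrial gene across libraries. The share was largest for MT-ATP6. The assignment of reads with several matches is not given in the sources used here. Levels of these genes are therefore uncertain by an amount that the shares do not bound. Of 49 nuclear copies tested, 3 rose and 2 fell in the average, where 4.29% of all genes were called higher and 3.08% lower. MTND5P15 rose by 2.42 ± 0.53 with 0 to 44 reads, and MTND1P8 fell by 1.20 ± 0.30 with 1 to 59 (limma, adjusted p = 0.00558 and 0.0159).

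Nuclear genes that serve the same complexes and the expression of mitochondrial DNA were compared as lists. In the average 4.29% of all genes tested were called higher and 3.08% lower. At an unadjusted p under 0.05 limma had 9.72% higher and 9.46% lower. Single calls in lists this small are thus no result about the list. Of the 75 nuclear-encoded subunits of oxidative phosphorylation tested, limma called 0 in either direction, with 4 at an unadjusted p under 0.05, and their median was 0.06. Of 75 mitochondrial ribosomal proteins 1 rose, MRPS28 at 0.48 ± 0.11 (limma, adjusted p = 0.00619), and 0 fell. Of 15 genes of mitochondrial transcription and replication 1 rose, the mitochondrial DNA polymerase POLG at 0.31 ± 0.09 (adjusted p = 0.0414). Of 19 mitochondrial tRNA synthetases 1 rose, the tyrosyl enzyme YARS2 at 0.26 ± 0.08 (adjusted p = 0.047), and of 14 RNA modification enzymes 1 fell, the tRNA isopentenyltransferase TRIT1, by 0.24 ± 0.06 (adjusted p = 0.0224). Of 21 genes of RNA processing and decay limma called 0, with 0 at an unadjusted p under 0.05. The highest median of these 6 lists in the average was 0.07, beside 0.36 for the 28 mitochondrially encoded genes. In CD28 the order was the other way, with medians of 0.27 for the nuclear-encoded subunits (62 of 75 above 0) and 0.28 for the ribosomal proteins (67 of 75), beside -0.09 for the 28. There labeled replicate 2 decides the median of the 28, which was 0.74 without it, beside 0.32 and 0.28 for the lists.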

How the data were processed

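The deposited values are log2 FPKM that the authors computed for 25745 genes in 26 libraries, running from -9.73 to 14.8. The submitters' processing notes name HISAT2 2.1.0, the genome build hg38 and edgeR, the last with no version. The counting tool and the handling of strand and of reads with several matches were not given in the sources used here. Symbols, coordinates and sequences came from GENCODE 29, matched on 24075 gene identifiers with version and 1579 without, and 91 did not match.

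The deposited log2 values carry a prior count scaled to library size, estimated at 1.003 reads from 3956 genes whose lowest value is shared by several libraries. Undoing it gave whole reads, to within 0.05 read, for all 728 values of the 28 members, for 99.98% of values in those genes and for 97.4% of values under 100 reads in the others. Intervals and limits from reads cover counting error only.

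Groups came from the sample titles. Genes above a log2 value of 0 in 3 or more libraries, 22284 in all, were tested on the deposited log2 scale with limma 3.58.1 in R 4.3.3. The model had group means, a trend of spread on level and 18 residual degrees of freedom (20.87 after moderation). No pseudocount was added beyond the authors' prior, which understates differences at few reads. All p-values are two-sided and were adjusted by Benjamini-Hochberg over all genes, separately for the 7 comparisons, and a gene was called where the adjusted value was under 0.05. Simulated data on 22284 genes tested the fit. For the average it recovered 69% of changes of 1 log2 unit and 89% of changes of 2, with 23 false calls. For Lyn11 this was 43%, 73% and 32, for Lck 31%, 66% and 0, for CD28 38%, 69% and 215, and for PDGFR 46%, 73% and 282. False calls were most numerous for CD28 and PDGFR, so calls in these constructs are the least certain.

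Any member could be named. Every rRNA and mRNA, the called tRNAs and the 3 highest and 3 lowest tRNAs by mean level have values in every group, and each other list gives up to 4 called genes. The members and lists were chosen with earlier results of these data known. Alternatives were other scalings, filters, a pseudocount, limma voom on the recovered reads, weights by construct, a fit on the libraries compared alone, a replicate block, and leaving out libraries. The permutation test was added after seeing the data.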

Additional observations from a re-analysis of the deposited data

Results flagged for a closer look

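Groups of 4 libraries were searched for a library far from the others, by its gap to the nearest library as a share of the group's range (compared with Dixon's 95% critical value for 4 libraries). Of 56 Lyn11 groups 6 were past it, and chance alone flags about 1 in 20. In labeled libraries these were MT-TN, with 1 library at 5.96 log2 FPKM and the next at 4.59 (share 0.903), and MT-TG, with 1 at 6.35 and the next at 5.63 (0.887). In control libraries MT-ND3 had 1 library at 6.90 with the next at 5.84 (0.964), and MT-TR had 1 at 5.95 with the next at 5.47 (0.85). Low control libraries were those of MT-ATP8, at 6.07 below 6.43 (0.835), and of MT-ND4L, at 7.28 below 7.93 (0.844).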

How the results depend on the processing

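No called result reversed under any alternative run. The count of members called for Lyn11, 1 as reported, was 2 with quantile normalization and without CD28 labeled replicate 2 and PDGFR control replicate 2 together, and 0 with voom, with weights by construct and on the Lyn11 libraries alone. Of all 22284 genes, 236 were called higher and 20 lower for Lyn11 with quantile normalization, and 239 and 17 without both libraries. Leaving out single libraries gave 0 to 1 members. For Lck it was 3 with weights by construct and 0 otherwise, and for CD28 and PDGFR 0 in 37 of 37 alternatives. For the average, 2 as reported, it was 1 with quantile normalization, the stricter filter or weights, 4 with voom, 6 without both libraries that stand apart, and 1 to 6 without single libraries. Without both, 1212 of all genes were called higher and 733 lower in the average. For the control libraries, 4 as reported, the count was 9 on the control libraries alone, where 6.57% of all genes were called higher and 3.69% lower. Without single libraries it was 2 to 7. Over all genes the Lck calls rose from 169 higher and 8 lower to 1200 and 631 with weights by construct. The CD28 medians became 0.74 for mRNAs and 0.44 for tRNAs without both libraries, with ranges of -0.67 to 0.74 and -1.10 to 0.44 without single libraries. The causes of these changes were not tested.

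Replicate numbers are shared between labeled and control groups, and deviations of same-numbered libraries correlated at -0.288 to 0.166. With groups this small, these values cannot decide whether the numbers pair the samples. The main fit did not pair them. With a replicate block the average called 5 members (MT-ND1, MT-TI, MT-TG, MT-TS2 and MT-ND6), all higher, where 794 genes (3.56%) were called higher and 497 (2.23%) lower, Lyn11 called 1, and Lck, CD28, PDGFR and inside minus outside called 0. The block cannot be fitted for the control comparison. Depth limits the rRNAs and the least abundant tRNAs.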
